A study of Mus musculus with 14 samples.

Results

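Regulatory T cells (Tregs) carrying a deletion of Cd36 were compared with wild-type Tregs, both sorted from tumors of Yumm1.7, a mouse melanoma line. The comparison takes in 6 of the 14 libraries of the study, 3 per genotype. It covers every gene that reached 1 FPKM (fragments scaled by transcript length and library size) in at least 3 of the 6. That left 8210 of 22255 genes. The wild-type (WT) group had the strain label FoxP3-YFPCre+/+ and the deleted (KO) group CD36floxed FoxP3-YFPCre+/-, and both were Foxp3-YFP+ cells from mice of 8 weeks. In this model the Foxp3 locus drives Cre, so the deletion is meant for Foxp3-expressing cells and the other cells of the host keep Cd36. Both groups carry the Cre reporter allele, but its labelled dose differs between them, so the deletion and the allele dose cannot be told apart. The 8 libraries of spleen and lymph node Tregs (4 each) serve here as reference levels. The labels do not say whether the libraries of a group came from separate mice, so the p-values measure the spread between libraries, which may be technical.

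CD36 is a scavenger receptor and fatty acid translocase through which cells import fatty acids and bind oxidized lipoproteins. Tregs are CD4 T cells held to their suppressive program by the transcription factor Foxp3. They lean on fatty acid oxidation and mitochondrial respiration more than effector T cells do. Fatty acids that enter a cell can activate the PPAR nuclear receptors, which are known to raise genes of lipid handling and mitochondrial function.

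Library preparation followed Smart-Seq2 for low input, on total RNA. Depth, read from the steps between low FPKM values, was about 10.7 to 14.4 M reads in WT and 13.6 to 17.1 M in KO, so KO libraries were on the whole deeper. Between 7469 and 8247 genes per library reached 1 FPKM. Across the tested genes the log2 values of 2 WT libraries correlated at 0.749 to 0.753, of 2 KO libraries at 0.808 to 0.824 and of a WT with a KO library at 0.751 to 0.776, so WT libraries were no closer to each other than to KO libraries. These correlations are across genes, which are not independent replicates. Libraries are named WT 2, 3 and 4 and KO 1, 2 and 3, by their label numbers, and values always follow that order.

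Cd36 itself (chr5:17781690-17888801, minus strand, GRCm38) was at or near 0 in both genotypes. Its level was 0, 0 and 0 FPKM in WT and 0, 1.06 and 0 FPKM in KO. The only tumor library with any signal was KO 2. In the WT libraries, 3 reads on the transcript of 3399 bases would have given 0.0612 to 0.0826 FPKM. Cd36 ranged from 0 to 4.47 FPKM in spleen Tregs, with a median of 1.38 FPKM. It was listed at 0 in every lymph node library. These reference levels are a description and were not tested. Cd36 therefore did not enter the fit across genes, and the exact two-sided permutation test of its log2 difference of 0.35 gave p = 1. Without KO 2 the difference was 0. Deletion of Cd36 could thus not be checked in these libraries, because Cd36 was listed at 0 in the WT tumor Tregs as well. The mitochondrial gene mt-Co2, which every cell uses, is also listed at 0, within a stretch of neighboring genes at or near 0 in every tumor library. A listed 0 there need not mean that the transcript was absent or under the depth limit. Whether the same holds for Cd36, which had values above 0 in KO 2 and in spleen, was not tested.

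Both groups expressed the markers that define Tregs, and Foxp3 was higher in every KO library than in every WT library without passing the threshold. Foxp3, the lineage factor of Tregs, was listed at 12, 3.54 and 12 FPKM in WT and 42.4, 41.7 and 25.7 FPKM in KO (log2 difference 2.01 ± 0.61, adjusted p = 0.338, robust limma-trend with Benjamini-Hochberg adjustment over all tested genes, as for every adjusted p except where another test is named). The lowest WT library, at 3.54 FPKM, was WT 3. Foxp3 ranged from 8.67 to 27.8 FPKM in spleen Tregs and from 15.4 to 32.3 FPKM in lymph node Tregs. Every WT tumor library thus lay under the lymph node range, and WT 3 also under the spleen range. KO 1 and KO 2 lay above both ranges and KO 3 within them, a description that was not tested. In libraries of sorted populations, a smaller share of cells of a type and less RNA per cell cannot be told apart. The inhibitory receptor Ctla4 stood at 101, 113 and 76.1 FPKM in WT and 147, 158 and 166 FPKM in KO, again without overlap (log2 difference 0.71 ± 0.29, adjusted p = 0.552). Il2ra, the alpha chain of the IL-2 receptor, overlapped between genotypes at 44.2, 42.6 and 48.1 FPKM in WT and 62.2, 41.8 and 46.5 FPKM in KO. Ikzf2, the transcription factor Helios, was at 136, 198 and 139 FPKM in WT and 132, 123 and 129 FPKM in KO, with every KO library under the lowest WT library (log2 difference -0.28 ± 0.28, adjusted p = 0.854). None of the 8 marker genes checked for the Treg label passed the threshold.

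Past the threshold of adjusted p under 0.05 stood 23 of the 8210 genes (0.28%), 8 higher in KO (0.0974%) and 15 lower (0.183%). The 15 lower genes were mostly short non-coding RNAs: 6 mitochondrial tRNAs, 3 small nucleolar RNAs (snoRNAs), 1 small nuclear RNA and 1 mitochondrial ribosomal RNA, besides Klf2, Rps21 and the predicted genes Gm10800 and Gm10801. The 8 higher genes included Jchain and an immunoglobulin joining segment, known from antibody-secreting cells, C1qb and Tyrobp, known from macrophages, and the protein-coding genes Ergic3 and S100a1. At an unadjusted p under 0.05 the count was 709 genes (8.64%), 416 higher (5.07%) and 293 lower (3.57%). Without overlap between the 3 KO and 3 WT libraries were 1188 genes (14.5%), 619 higher (7.54%) and 569 lower (6.93%). Over all tested genes the median difference was 0.07 and 53.7% of the differences were above 0.

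**Figure D1:**
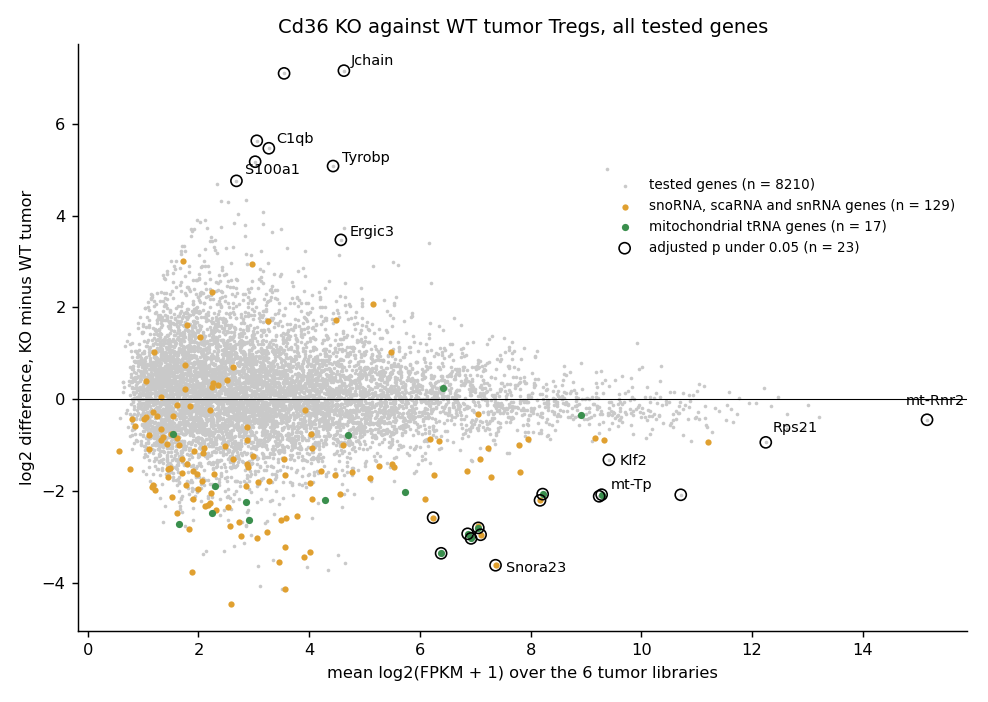
Each point is a tested gene, with its mean log2(FPKM + 1) over the 6 tumor libraries on the horizontal axis and its log2 difference, KO minus WT, on the vertical axis, and circles mark the 23 genes past the threshold. Mitochondrial tRNA genes (green) and snoRNA, scaRNA and snRNA genes (orange) lie mostly below 0, while the circled genes with the highest differences, up to 7.15 for Jchain, have mean levels in the middle of the range.

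**Figure D2:**
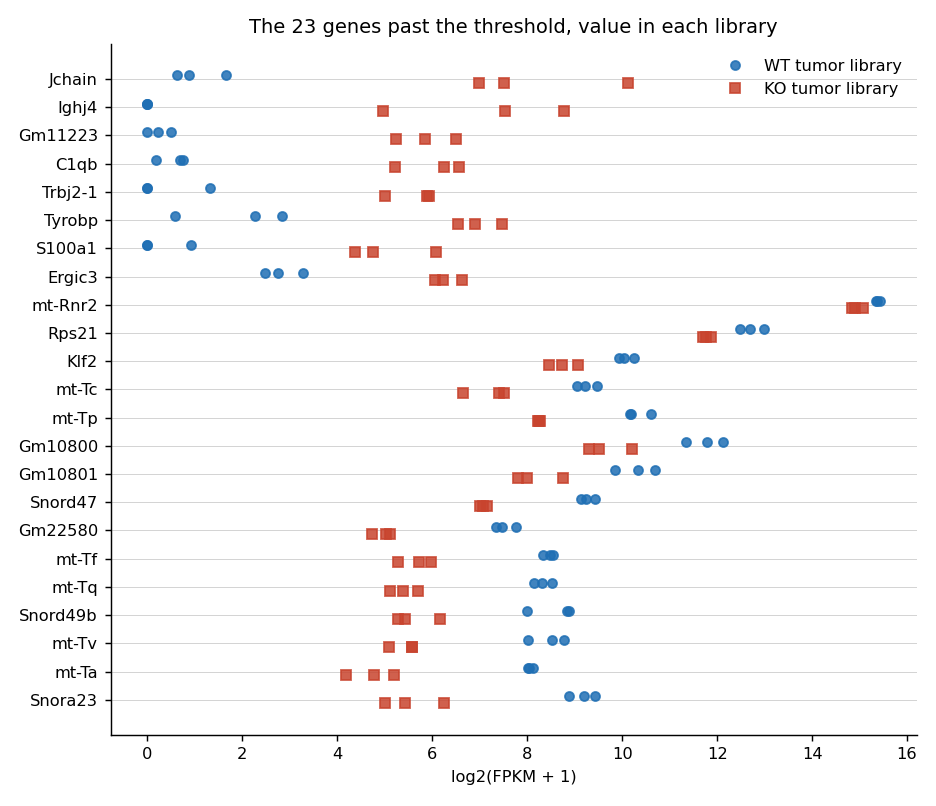
Values of the 23 genes past the threshold, as log2(FPKM + 1) on the horizontal axis, with 1 point per library (blue circles WT, red squares KO) and genes ordered by their difference. The WT and KO points do not overlap for any of the 23 genes.

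The plot of the 23 genes by library shows how they entered the test. Of these genes 16 reached 1 FPKM in all 6 libraries, among 4870 such genes. Another 4 (Gm11223, C1qb, Ighj4 and S100a1) came from the 112 genes that entered through the 3 KO libraries alone, with no WT library at 1 FPKM, and these had to differ to be tested at all. The 31 genes that entered through the 3 WT libraries alone held none of the 23. Leaving out 1 library lowered the count to 14 genes without WT 2, 14 without WT 3, 14 without WT 4, 15 without KO 1, 9 without KO 2 and 9 without KO 3. Kept in every such fit that tested them were 10 genes, namely mt-Tp, mt-Tq, mt-Tf, mt-Tv, mt-Ta, Snord47, Snora23, Jchain, Gm11223 and C1qb, of which Gm11223 and C1qb were tested in only the 3 fits without a WT library. For the other 13 genes the libraries that ended the call are named with their values where each gene is described.

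Mitochondrial tRNAs were the most uniform group. The mitochondrial genome encodes its own tRNAs, rRNAs and respiratory chain subunits, and its long primary transcripts are cut at the tRNAs that punctuate them. The 6 tRNAs that fell in KO are shown with their sequences because they come from both strands and from separated places of the genome. They share no sequence word of 31 bases with another annotated transcript. How FPKM was adjusted for genes this short is not given in the sources used here, and neither is whether counting used strand. Their FPKM values are therefore uncertain, and reads from the opposite strand may count toward them. The sequences are from GENCODE M21 on GRCm38, 5′ to 3′ on the gene's own strand, with the anticodon in capitals.
mt-Tf: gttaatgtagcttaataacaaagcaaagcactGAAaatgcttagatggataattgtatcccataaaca
mt-Tv: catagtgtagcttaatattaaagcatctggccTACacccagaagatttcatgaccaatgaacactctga
mt-Tq: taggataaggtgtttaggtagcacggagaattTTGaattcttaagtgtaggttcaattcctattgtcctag
mt-Ta: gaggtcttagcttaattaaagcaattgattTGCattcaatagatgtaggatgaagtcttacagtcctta
mt-Tc: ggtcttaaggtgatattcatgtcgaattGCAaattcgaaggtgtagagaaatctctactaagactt
mt-Tp: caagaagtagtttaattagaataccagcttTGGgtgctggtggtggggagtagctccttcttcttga

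These genes are mt-Tf (chrM:1-68, plus strand), which carries phenylalanine, mt-Tv (chrM:1025-1093, plus strand), valine, mt-Tq (chrM:3772-3842, minus strand), glutamine, mt-Ta (chrM:5018-5086, minus strand), alanine, mt-Tc (chrM:5192-5257, minus strand), cysteine, and mt-Tp (chrM:15356-15422, minus strand), proline. The proline tRNA mt-Tp, the most abundant of the 6, stood at 1555, 1153 and 1165 FPKM in WT and 298, 307 and 303 FPKM in KO and fell with a log2 difference of -2.07 ± 0.19, adjusted p = 0.00673. The largest difference among the 6 was that of mt-Ta, at 257, 279 and 261 FPKM in WT and 35.4, 17.1 and 26.2 FPKM in KO (-3.35 ± 0.36, adjusted p = 0.00673). In both, every KO library lay far under the lowest WT library, and the KO values differed little from each other for mt-Tp. For mt-Tv the levels were 257, 438 and 367 FPKM in WT and 46.6, 33.1 and 46.4 FPKM in KO (-3.03 ± 0.33, adjusted p = 0.00673). The glutamine tRNA mt-Tq was at 365, 319 and 281 FPKM in WT and 33.6, 50.9 and 41 FPKM in KO (-2.93 ± 0.31, adjusted p = 0.00673). For mt-Tf, which opens the numbered map of the genome, the values were 356, 373 and 321 FPKM in WT and 51.7, 38 and 61.7 FPKM in KO (-2.80 ± 0.30, adjusted p = 0.00673). None of these 5 lost its call when a library was left out. The cysteine tRNA mt-Tc, at 528, 596 and 712 FPKM in WT and 99.3, 169 and 181 FPKM in KO (-2.06 ± 0.28, adjusted p = 0.0185), did lose it, without WT 2 (0.0522), WT 3 (0.0721), WT 4 (0.08), KO 2 (0.0763) and KO 3 (0.0617), where the values are adjusted p.

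Of the 22 mitochondrial tRNA genes 17 were tested, 6 fell, 12 had every KO library under every WT library and none the reverse, and their median difference was -2.19. Over all tested genes 0.183% fell past the threshold, 6.93% lay lower in every KO library and 7.54% higher. Not all mitochondrial tRNAs took part. The asparagine tRNA mt-Tn, between mt-Ta and mt-Tc on the same strand, was at 40.7, 115 and 98.7 FPKM in WT and 52.9, 107 and 139 FPKM in KO, with overlapping groups (log2 difference 0.25 ± 0.51, adjusted p = 0.946). The glutamate tRNA mt-Te was at 551, 562 and 518 FPKM in WT and 524, 408 and 369.7 FPKM in KO (log2 difference -0.34 ± 0.20, adjusted p = 0.727). As a share of all FPKM, the mitochondrial tRNAs made up 0.695, 0.705 and 0.669% in WT and 0.215, 0.220 and 0.252% in KO (0.689 ± 0.0186% against 0.229 ± 0.0202%, SD, n = 3; exact two-sided permutation p = 0.1, the smallest that 3 against 3 libraries can give). Set beside the other tissues, mt-Tf was higher in both tumor groups, with ranges of 4.78 to 14.9 FPKM in spleen and 3.63 to 13.7 FPKM in lymph node. For mt-Tv the WT tumor libraries lay above the 13 to 34.1 FPKM of spleen, while the lowest KO library fell within that range. The order differed for mt-Tp, whose spleen libraries, at 535 to 966 FPKM, lay between WT and KO tumor libraries. These ranges are a description and were not tested.

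**Figure D3:**
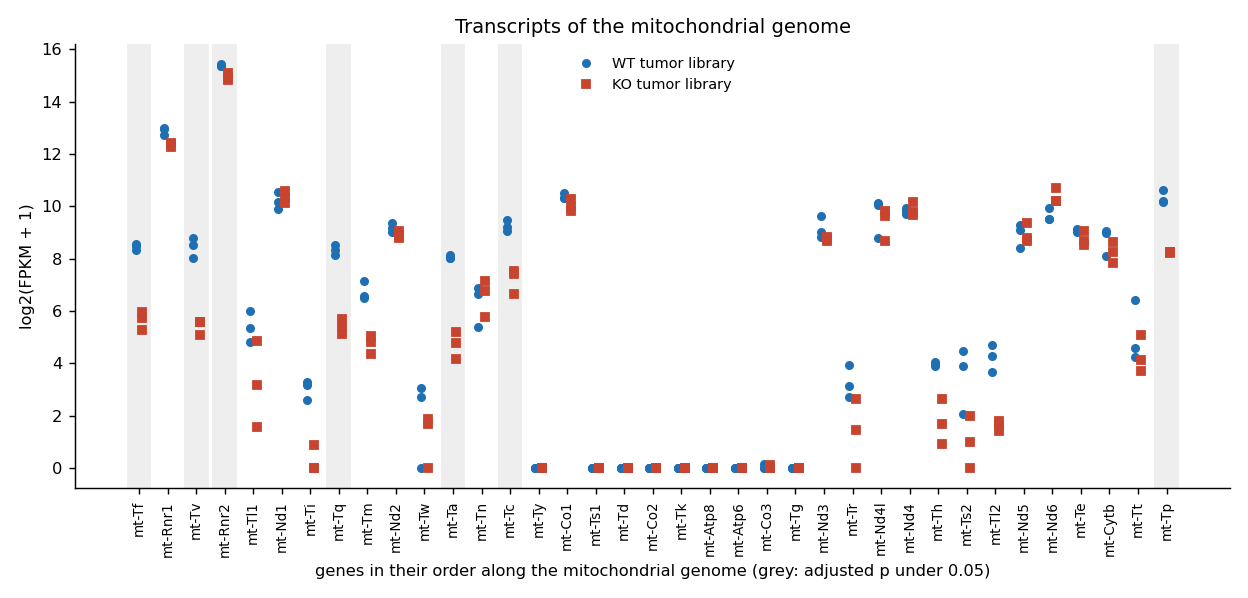
Levels of the 37 genes of the mitochondrial genome in their order along it (horizontal axis), as log2(FPKM + 1) on the vertical axis, with 1 point per library and grey bands for the genes past the threshold. The KO points lie under the WT points for most tRNAs and both rRNAs, while the protein-coding genes mostly overlap and the stretch from mt-Ts1 to mt-Tg is listed at or near 0 in every library.

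The other transcripts of the same genome did not move like its tRNAs. The large ribosomal RNA mt-Rnr2 (chrM:1094-2675), the most abundant transcript of the mitochondrial genome here, fell by less, at 42394, 44045 and 41901 FPKM in WT and 34635, 30631 and 29333 FPKM in KO (log2 difference -0.44 ± 0.07, adjusted p = 0.0397), and 2.71% of its 31-base words also occur in the predicted gene Gm20594. Its call ended without WT 2 (0.135), WT 3 (0.132), WT 4 (0.0954), KO 2 (0.243) and KO 3 (0.212) (adjusted p). The small ribosomal RNA mt-Rnr1 stood at 6699, 7995 and 8159 FPKM in WT and 5390.2, 4872 and 5318 FPKM in KO, also with no overlap (log2 difference -0.55 ± 0.10, adjusted p = 0.109). Of the 9 protein-coding genes tested none passed the threshold, 4 differences were above 0 and 5 under it, and their share of FPKM was 1.22 ± 0.102% in WT and 1.32 ± 0.0981% in KO (SD, n = 3; exact permutation p = 0.4). The member with the clearest separation was mt-Nd6, a complex I subunit and the only protein encoded on the opposite strand, at 986, 725 and 726 FPKM in WT and 1662, 1184 and 1166 FPKM in KO (log2 difference 0.71 ± 0.20, adjusted p = 0.308). The genes mt-Co2, mt-Atp8, mt-Atp6 and 5 tRNAs were listed at 0 in all 6 libraries. Since every cell uses these genes, a listed 0 here cannot be read as absence of the transcript.

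Small nucleolar RNAs, which guide chemical modification of ribosomal and spliceosomal RNA from the introns of host genes, formed the next group. Their sequences are given because box C/D and box H/ACA members, 2 classes with different guided modifications, both fell. Capitals mark box C and the last CTGA (box D) in Snord47 and Snord49b, and the closing ACA in Snora23.
Snord47: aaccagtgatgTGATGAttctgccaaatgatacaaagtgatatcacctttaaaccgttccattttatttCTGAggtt
Snord49b: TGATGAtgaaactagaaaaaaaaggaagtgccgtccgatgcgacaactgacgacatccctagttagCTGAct
Snora23: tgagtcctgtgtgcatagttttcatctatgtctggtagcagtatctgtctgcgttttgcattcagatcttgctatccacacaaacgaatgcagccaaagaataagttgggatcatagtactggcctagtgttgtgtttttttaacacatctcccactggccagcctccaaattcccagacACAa

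Snord47 (chr1:161038082-161038158, plus strand) was at 689, 607 and 559.5 FPKM in WT and 133, 141 and 127 FPKM in KO and fell with a log2 difference of -2.20 ± 0.21, adjusted p = 0.00673. Snora23 (chr7:110046364-110046547, plus strand) showed the largest drop of all genes past the threshold, from 692, 584 and 472 FPKM in WT to 75.4, 31.3 and 41.8 FPKM in KO (-3.61 ± 0.36, adjusted p = 0.00673). Both kept their call in every fit that left out a library. Snord49b (chr11:62603079-62603150, plus strand) was at 469.8, 454 and 255 FPKM in WT and 42.2, 37.9 and 70.4 FPKM in KO (-2.95 ± 0.37, adjusted p = 0.0132), a call that ended without WT 2 (0.0558), WT 3 (0.0597) and KO 2 (0.0712) (adjusted p). The host genes of Snord47 and Snora23 did not pass the threshold, and the host of Snord49b was not analysed here. Gas5, the non-coding host of Snord47, stood at 73.6, 84.3 and 69.9 FPKM in WT and 138, 56.8 and 121 FPKM in KO (log2 difference 0.37 ± 0.40, adjusted p = 0.866), and since the Snord47 sequence lies wholly inside an annotated Gas5 transcript, their reads cannot be told apart by sequence. Ipo7, an import receptor gene whose intron holds Snora23, was at 6.26, 7.76 and 3.16 FPKM in WT and 8.92, 4.77 and 10.8 FPKM in KO (log2 difference 0.45 ± 0.68, adjusted p = 0.92).

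The wider classes of small RNA moved the same way in their shares. Over all tested genes 0.183% fell past the threshold, 6.93% lay lower in every KO library and 7.54% higher. Among 82 tested snoRNA and scaRNA genes 3 fell, 28 lay lower in every KO library, 3 lay higher, and the median difference was -1.07. Their share of FPKM was 1.72 ± 0.279% in WT and 0.843 ± 0.0341% in KO. For snRNA, the RNA of the spliceosome, 47 genes were tested, 1 fell, 30 lay lower in every KO library and the median was -1.56, with shares of 0.346 ± 0.0679% and 0.135 ± 0.0241%. The snRNA gene that fell, Gm22580, was at 218, 175 and 162 FPKM in WT and 33.4, 25.5 and 31.6 FPKM in KO (log2 difference -2.57 ± 0.34, adjusted p = 0.0158). Each of its 31-base words also occurs in other annotated genes, and 298 genes hold at least 1 of them. Its value may thus stand for several genes and is uncertain. The call also ended without WT 2 (0.0736), WT 3 (0.0587), WT 4 (0.0534), KO 1 (0.0516), KO 2 (0.0879) and KO 3 (0.096) (adjusted p). miRNA precursors had shares of 2.15 ± 0.303% and 1.52 ± 0.0647%, and mitochondrial rRNAs of 8.51 ± 0.211% and 6.90 ± 0.265%. Each of these 4 differences in share had no overlap between groups and an exact permutation p of 0.1, the smallest possible. The nuclear protein-coding genes took up 69.5 ± 0.425% of FPKM in WT and 72.3 ± 1.40% in KO (SD, n = 3 throughout).

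Transcript length, taken as that of the longest annotated transcript of a gene, moved with these results. Among the 49 tested genes under 100 bases, 59.2% lay lower in every KO library, none lay higher, and the median difference was -1.95. From 100 to 200 bases it was 41.8% of 122 genes (median -1.15), from 200 to 300 bases 18.2% of 22 (-0.29), and from 300 to 500 bases 23.2% of 220 (-0.16). From 500 to 1000 bases it was 10.7% of 459 genes (median 0.06). In the 2948 genes of 1000 to 3000 bases it was 4.51% (median 0.19), and in the 4320 genes of at least 3000 bases 5.65% (median 0.03), beside 6.93% over all tested genes. Of the 15 genes that fell, 10 were under 300 bases. Refitting without genes under 300 bases and without receptor segments, an alternative chosen after the data were seen, left 8 genes past the threshold among 7947, 5 higher and 3 lower. The part of transcript length in the calls of the small RNAs was not tested. How FPKM was adjusted for very short genes, which bears on these differences, is not given in the sources used here. Among the small RNAs next in rank, given as values since they did not pass, Rny3, a Y RNA bound by the Ro protein, was at 93.2, 95.6 and 43.5 FPKM in WT and 12.3, 4.34 and 4 FPKM in KO (log2 difference -3.39 ± 0.60, adjusted p = 0.0763). Snora65 was at 53, 29.2 and 12.8 FPKM in WT and 0, 1.13 and 0 FPKM in KO (log2 difference -4.46 ± 0.78, adjusted p = 0.0717). Snord118, the U8 snoRNA needed for processing of the large ribosomal subunit RNA, was at 2908, 4015 and 2958 FPKM in WT and 2099.7, 1575 and 1496 FPKM in KO (log2 difference -0.93 ± 0.18, adjusted p = 0.108).

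Jchain and Ighj4, known from antibody-secreting cells, rose in KO. Igkc and Mzb1, which did not pass, were looked at after their values were seen. Jchain (chr5:88519809-88527891), the joining chain of secreted IgM and IgA, rose from 0.535, 2.14 and 0.847 FPKM in WT to 1113, 126 and 180.4 FPKM in KO (log2 difference 7.15 ± 0.81, adjusted p = 0.00798), the largest difference past the threshold. The 3 KO libraries differed widely, with KO 1 the highest. Ighj4, a joining segment of the immunoglobulin heavy chain, was listed at 0 in the 3 WT libraries and at 185, 437 and 30.2 FPKM in KO (adjusted p = 0.0158). That call ended without WT 2 (0.0522), WT 3 (0.0587) and WT 4 (0.0534) (adjusted p). Igkc, the kappa light chain constant region, stood at 142, 43.2 and 249 FPKM in WT and 14662, 1031 and 3560.1 FPKM in KO, also highest in KO 1 (log2 difference 5.02 ± 0.95, adjusted p = 0.126). Mzb1, a chaperone of antibody secretion, was at 0.309, 0 and 0.0767 FPKM in WT and 15.3, 6.6 and 36.5 FPKM in KO (log2 difference 3.89 ± 0.80, adjusted p = 0.126). Spleen libraries reached 62.3 FPKM for Jchain, 5963 FPKM for Igkc and 74.8 FPKM for Mzb1, with medians of 0.386, 595 and 10.8 FPKM. Lymph node libraries reached 0.0674, 171 and 0.0546 FPKM. These levels are a description and were not tested. All immunoglobulin segments together made up 0.0871, 0.0635 and 0.143% of FPKM in WT and 3.19, 0.477 and 1.04% in KO (exact permutation p = 0.1). Of the 10 B cell markers 6 were tested and none passed the threshold. Without overlap 1 was higher and 1 lower, beside 7.54% and 6.93% of all tested genes. The lower one was Ighm, the IgM heavy chain gene, at 356, 306 and 530.5 FPKM in WT and 305, 265 and 236 FPKM in KO (log2 difference -0.53 ± 0.26, adjusted p = 0.639). The higher one was H2-DMb2, a subunit of the peptide exchange factor H2-M for MHC class II, at 0.0627, 0 and 0.0933 FPKM in WT and 3.41, 1.54 and 2.27 FPKM in KO (log2 difference 1.66 ± 0.53, adjusted p = 0.367). Since H2-DMb2 reached 1 FPKM in no WT library, it had to separate to be tested. Ms4a1 (CD20) overlapped at 0.394, 3.1 and 18.2 FPKM in WT and 1.28, 0.048 and 10.5 FPKM in KO, and the mean log2(FPKM + 1) over the list ran from 1.43 to 2.23 in WT and from 1.58 to 2.49 in KO.

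Of the macrophage or monocyte markers, C1qb and Tyrobp rose in KO. C1qb (chr4:136880129-136886187), a chain of complement C1q, rose from 0.685, 0.615 and 0.128 FPKM in WT to 74.6, 36.1 and 93 FPKM in KO (log2 difference 5.46 ± 0.65, adjusted p = 0.00952). Tyrobp (chr7:30413760-30417585), the DAP12 adaptor of myeloid and NK cells, rose from 6.11, 3.83 and 0.492 FPKM to 91.8, 177 and 118 FPKM (log2 difference 5.08 ± 0.67, adjusted p = 0.0158), a call that ended without KO 1 (0.0643), KO 2 (0.15) and KO 3 (0.16) (adjusted p). For both genes the WT and KO libraries were far apart. In spleen Tregs C1qb ranged from 42.4 to 134 FPKM and Tyrobp from 131 to 216 FPKM. In lymph node Tregs the ranges were 0.171 to 24.5 FPKM and 0.0875 to 6.57 FPKM. High levels of both genes were thus not confined to KO libraries, a description that was not tested. C1qc was at 0.0775, 0 and 0.0577 FPKM in WT and 3.17, 16.8 and 29.6 FPKM in KO and C1qa at 0, 1.29 and 0 FPKM in WT and 4.07, 7.3 and 1.9 FPKM in KO. Apoe, the lipoprotein component apolipoprotein E, stood at 1.72, 0.162 and 0.151 FPKM in WT and 52.3, 22.2 and 1.9 FPKM in KO (log2 difference 3.31 ± 1.09, adjusted p = 0.393), and its KO 3 value was close to the highest WT value. Csf1r, the receptor for macrophage colony-stimulating factor, was at 0.0763, 0.0305 and 0 FPKM in WT and 5.23, 5.01 and 1.78 FPKM in KO. Other defining genes were at or near 0 in most libraries. Adgre1 (F4/80) reached 0.0179 FPKM in KO 3 and was listed at 0 elsewhere, Msr1 was listed at 0 in all 6 libraries, and Cd68 was at 0, 0 and 0 FPKM in WT and 9.1, 0 and 0.0463 FPKM in KO. Mrc1, the mannose receptor, was at 0, 0 and 0.0129 FPKM in WT and 5.88, 0 and 0 FPKM in KO, so KO 1 was the library with a raised level of Cd68 and Mrc1. The cathepsin Ctsb, which many cells express, was at 166, 150.3 and 123 FPKM in WT and 136, 156 and 146 FPKM in KO. Over the whole list of 15 markers, 5, 4 and 1 genes reached 1 FPKM in WT and 12, 8 and 9 in KO. The mean log2(FPKM + 1) over the list was 1.60, 0.950 and 0.565 in WT and 3.28, 2.80 and 2.51 in KO, a difference of 1.83 (exact permutation p = 0.1, the smallest possible, and 0.9 adjusted over the 9 marker lists). With a pseudocount of 0.1 or 5 in place of 1 that difference was 2.82 or 1.09. Of the 8 tested markers, 3 (C1qb, C1qc and Csf1r) entered through the KO libraries alone.

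**Figure D4:**
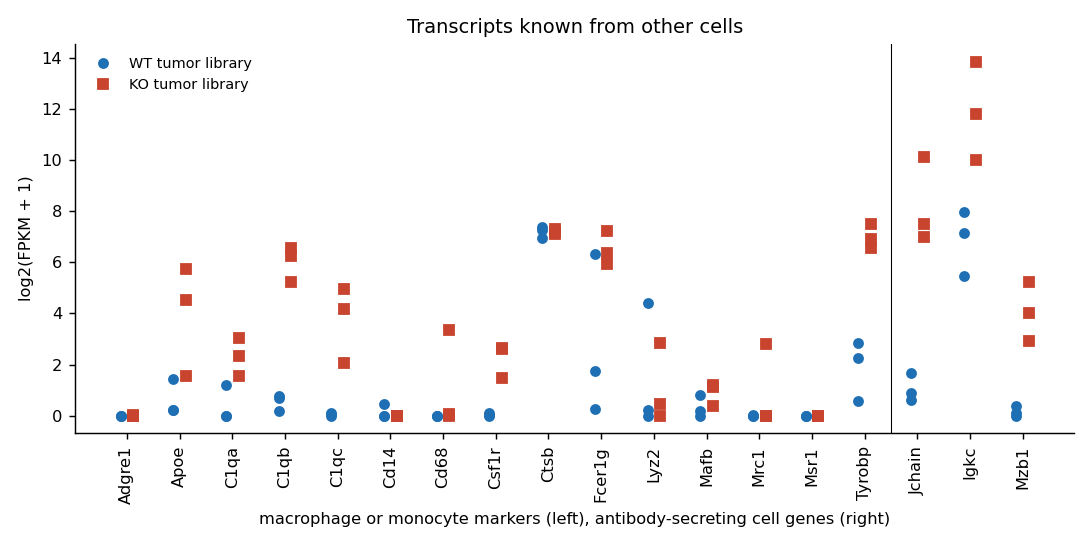
Levels of the 15 macrophage or monocyte markers (left of the line) and of 3 genes of antibody-secreting cells (right), as log2(FPKM + 1) on the vertical axis, with 1 point per library (blue circles WT, red squares KO). C1qa, C1qb, C1qc, Csf1r, Apoe and Tyrobp and the 3 genes on the right do not overlap between genotypes, though C1qb, C1qc, Csf1r and Mzb1 reached 1 FPKM in no WT library, while Adgre1 and Msr1 lie at or near 0 and Ctsb overlaps.

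The plot of transcripts known from other cells shows that WT 2 was the WT library with the highest level of some macrophage markers. Fcer1g, a signalling chain of Fc receptors, was at 78, 2.39 and 0.185 FPKM in WT and 81.2, 149.9 and 59.4 FPKM in KO, where WT 2 lay among the KO libraries. Lyz2, the lysozyme of myeloid cells, was at 19.9, 0 and 0.164 FPKM in WT and 6.21, 0 and 0.368 FPKM in KO, where WT 2 lay above every KO library. For the mean marker levels of the remaining cell types the exact permutation p was 0.3 to 0.9 and every adjusted p 0.9. The mean over the list was 0.204 to 0.624 in WT and 0.240 to 0.960 in KO for dendritic cells, with Batf3 and Ccl17 at 0 in all 6 libraries. It was 0.237 to 0.660 and 0.216 to 0.427 for neutrophils, whose S100a8, Retnlg, Camp, Ngp and Elane were at 0 in every library. Markers of CD8 T or NK cells gave 2.07 to 2.12 and 1.98 to 2.15, and those of conventional helper T cells 2.62 to 2.75 and 2.55 to 3.03. For fibroblasts or endothelium the list gave 0.176 to 0.309 and 0.241 to 0.929, and for melanoma 0.412 to 0.550 and 0.496 to 0.575. Globin and other erythroid genes varied between libraries of both groups, at 2.47, 5.72 and 5.62 in WT and 5.55, 6.01 and 1.97 in KO. The part of other cells in the differences between KO and WT Tregs was not tested.

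The T cell receptor joining segment Trbj2-1 (chr6:41542754-41542803, plus strand) was listed at 0, 1.49 and 0 FPKM in WT and 31, 60.5 and 58.2 FPKM in KO (log2 difference 5.17 ± 0.69, adjusted p = 0.0169). It is shown with Ighj4 (chr12:113428514-113428567, minus strand) because both are short germline segments. Capitals mark the conserved motif that codes for phenylalanine (Trbj2-1) or tryptophan (Ighj4), then glycine, any residue and glycine.
Trbj2-1: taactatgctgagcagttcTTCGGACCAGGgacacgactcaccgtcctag
Ighj4: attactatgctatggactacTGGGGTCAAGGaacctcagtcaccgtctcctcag
Among 59 tested T cell receptor segments 1 passed the threshold, and 8 lay higher and 6 lower in every KO library. All tested genes gave 0.28%, 7.54% and 6.93%. The share of FPKM of T cell receptor segments was 1.75 ± 0.0383% in WT and 1.54 ± 0.192% in KO (exact permutation p = 0.3). The call of Trbj2-1 ended without WT 2 (0.0522), WT 4 (0.0536), KO 1 (0.0649), KO 2 (0.172) and KO 3 (0.191) (adjusted p). Reference levels of Trbj2-1 were 12.2 to 175 FPKM in spleen and 77.9 to 181 FPKM in lymph node. WT tumor was thus the group apart, a description that was not tested.

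Klf2 (chr8:72319033-72321656), a zinc-finger transcription factor of quiescent and recirculating T cells, was the transcription factor among the genes that fell. Its level was 1213, 971 and 1056 FPKM in WT and 539, 423 and 353 FPKM in KO, with every KO library under the lowest WT library (log2 difference -1.31 ± 0.21, adjusted p = 0.0397). Spleen Tregs ranged from 256 to 580.4 FPKM and lymph node Tregs from 293 to 439 FPKM, so that KO tumor libraries lay within or near those ranges and WT tumor libraries above them, a description that was not tested. The call ended without WT 2 (0.146), WT 3 (0.0871), WT 4 (0.0995), KO 2 (0.202) and KO 3 (0.212) (adjusted p). S1pr1, the sphingosine phosphate receptor for T cell egress and a known Klf2 target, was at 139.6, 40.6 and 67 FPKM in WT and 51.5, 49.5 and 17.4 FPKM in KO, with overlap (log2 difference -1.01 ± 0.59, adjusted p = 0.723).

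Rps21 (chr2:180257377-180258445), a protein of the small ribosomal subunit, fell at 6605, 8096 and 5705 FPKM in WT and 3754, 3477 and 3339 FPKM in KO (log2 difference -0.94 ± 0.13, adjusted p = 0.0227). It shares 19.5% of its 31-base words with 4 predicted genes, and its call ended without WT 2 (0.0848), WT 3 (0.0587), KO 1 (0.0649), KO 2 (0.15) and KO 3 (0.186) (adjusted p). The predicted genes Gm10800 (chr2:98666547-98667301) and Gm10801 (chr2:98662237-98664083), neighbors on the same chromosome, fell at 4483, 2599.6 and 3512 FPKM in WT and 1184, 730.4 and 629 FPKM in KO for Gm10800 (log2 difference -2.08 ± 0.26, adjusted p = 0.0141) and 1659, 922 and 1289 FPKM in WT and 429, 254 and 224 FPKM in KO for Gm10801 (log2 difference -2.11 ± 0.30, adjusted p = 0.0218). They share 42.0% and 36.2% of their words with 11 genes, each other among them, so their values are uncertain and count as a single signal. Their calls ended without WT 2 (0.0522), WT 4 (0.0607), KO 2 (0.0763) and KO 3 (0.0708) for Gm10800 and without WT 2 (0.0848), WT 4 (0.0808), KO 2 (0.128) and KO 3 (0.151) for Gm10801 (adjusted p).

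Among protein-coding genes that rose, Ergic3 (chr2:156008045-156018279), a membrane protein that cycles between the endoplasmic reticulum and the Golgi, stood at 8.66, 4.59 and 5.76 FPKM in WT and 74, 97.9 and 65.9 FPKM in KO (log2 difference 3.47 ± 0.49, adjusted p = 0.0222). Its spleen range was 19.3 to 106 FPKM and its lymph node range 25.6 to 66.7 FPKM, so WT tumor was the group apart. The call ended without WT 3 (0.0587), WT 4 (0.0625), KO 1 (0.15), KO 2 (0.222) and KO 3 (0.191) (adjusted p). S100a1 (chr3:90511034-90514392), a calcium-binding protein, was at 0, 0 and 0.9 FPKM in WT and 19.7, 66.4 and 25.8 FPKM in KO (log2 difference 4.75 ± 0.74, adjusted p = 0.0397), and lost its call without WT 2 (0.0992), WT 3 (0.0978) and WT 4 (0.0655) (adjusted p). Gm11223 (chr4:69925630-69926079) is annotated as a processed pseudogene and shares 92.6% of its words with Stmn1 and a Stmn1-related sequence. Its level was 0.414, 0.165 and 0 FPKM in WT and 36.9, 56.9 and 89.6 FPKM in KO (log2 difference 5.63 ± 0.65, adjusted p = 0.00864). Stmn1, the microtubule regulator stathmin, was at 10.8, 6.71 and 23.1 FPKM in WT and 88.7, 87.6 and 113 FPKM in KO (log2 difference 2.90 ± 0.52, adjusted p = 0.0801), so reads of the pseudogene and of Stmn1 cannot be told apart with certainty.

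The genes next in rank on the higher side did not pass and are given as values. Zcchc10, a zinc knuckle protein, was at 1.62, 0.47 and 1.75 FPKM in WT and 29.5, 61.1 and 25.9 FPKM in KO (log2 difference 4.08 ± 0.66, adjusted p = 0.0507). Trap1, the mitochondrial HSP90 chaperone, was at 0.241, 0.225 and 0.12 FPKM in WT and 26.4, 37.2 and 11.8 FPKM in KO (log2 difference 4.32 ± 0.72, adjusted p = 0.0585). Adi1, an enzyme of methionine salvage, stood at 0.169, 1.31 and 0.588 FPKM in WT and 70.2, 16.6 and 27.1 FPKM in KO (log2 difference 4.33 ± 0.75, adjusted p = 0.0701), and Mgst3, a microsomal glutathione transferase, at 0.255, 0.0678 and 0.379 FPKM in WT and 18.8, 9.21 and 20.5 FPKM in KO (log2 difference 3.73 ± 0.70, adjusted p = 0.103). All 4 were low in the 3 WT libraries, at 1.75 FPKM or less, and at 9.21 FPKM or more in each KO library. They were named by a rule that asked for no overlap, so this separation was fixed by the choice. Trap1 and Mgst3 reached 1 FPKM in no WT library and were tested through the KO libraries alone. Spleen and lymph node medians were 3.63 and 22.3 FPKM for Zcchc10 and 3.05 and 11 FPKM for Trap1. For Adi1 they were 33.6 and 27.3 FPKM, and for Mgst3 2.16 and 4.59 FPKM.

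The wider pathways were described with 33 gene lists, which held 783 distinct tested genes. Of these 2 passed the threshold, Klf2 and Rps21. Over all tested genes that share was 0.28%. Separation without overlap was found for 69 of them on the higher side and 81 on the lower. These counts include members tested through a single genotype, which had to separate. All tested genes gave 7.54% and 6.93%. Their median difference was 0.02 against 0.07 for all tested genes. The lists are therefore described by their counts and medians, and the genes named in them are given as values.

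**Figure D5:**
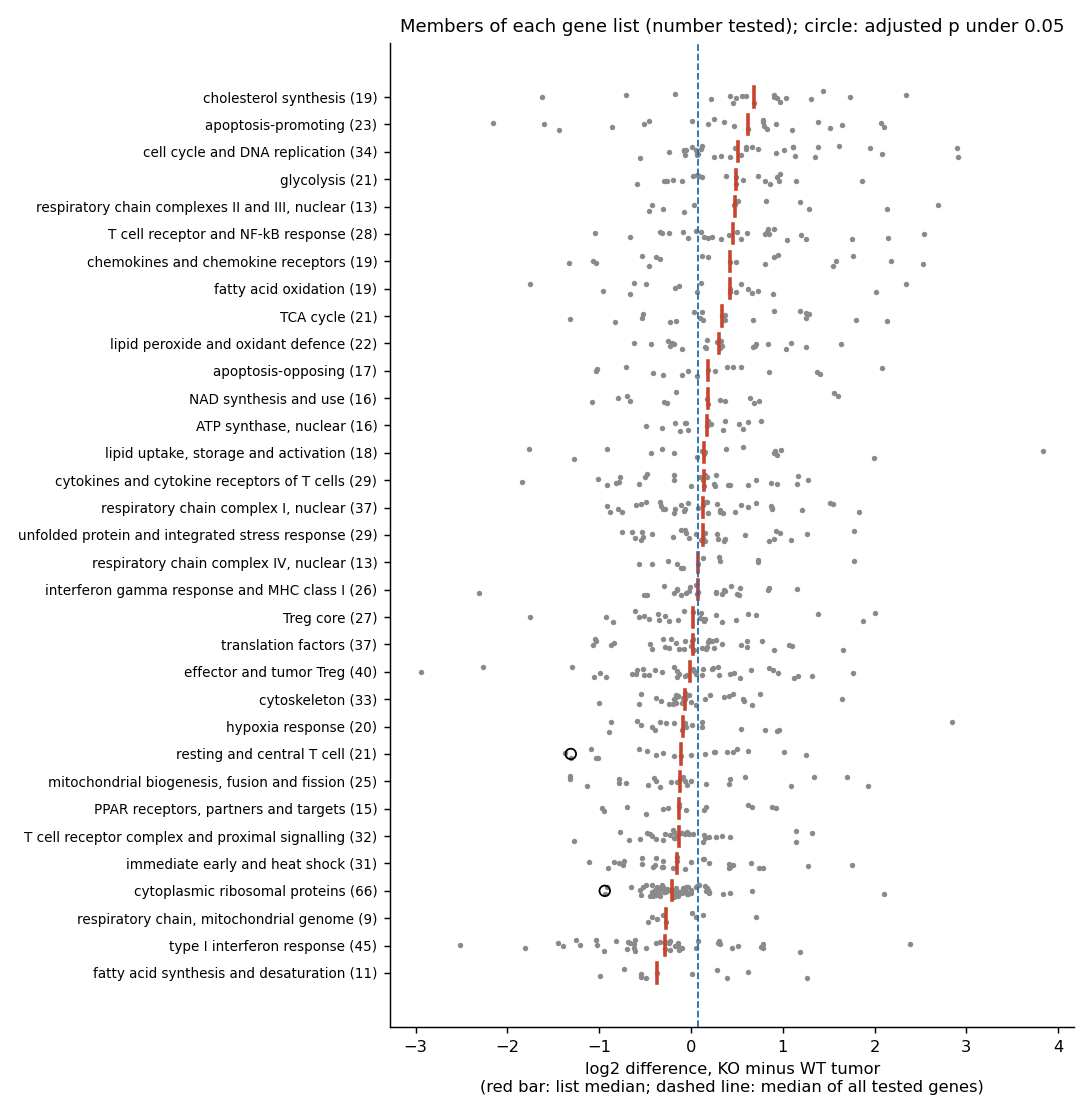
Log2 difference, KO minus WT (horizontal axis), of each tested member of the 33 gene lists (vertical axis, with the number tested), where the red bar is the list median and circles mark the 2 members past the threshold. List medians run from -0.37 for fatty acid synthesis to 0.69 for cholesterol synthesis, around the dashed median of all tested genes at 0.07, and the members of every list spread to both sides.

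Lipid handling, the process in which CD36 itself acts, showed no gene past the threshold. Lipid uptake, storage and activation had 18 tested, 12 differences above 0 and 6 under it, median 0.15, with 3 members higher and 2 lower without overlap, beside 7.54% and 6.93% of all tested genes. Fabp5, a fatty acid binding protein that carries lipids to the nucleus and the mitochondria, was at 2.64, 0.151 and 0.0703 FPKM in WT and 65.2, 4.41 and 35.5 FPKM in KO (log2 difference 3.84 ± 1.03, adjusted p = 0.277). Scarb1, the scavenger receptor for high-density lipoprotein and a relative of Cd36, was at 0, 0.059 and 0.0275 FPKM in WT and 6.26, 1.37 and 2.98 FPKM in KO (log2 difference 1.99 ± 0.61, adjusted p = 0.345). Both were higher in each KO library, whereas the hormone-sensitive lipase Lipe was lower in each, at 94.3, 84.7 and 43.5 FPKM in WT and 34.1, 27.3 and 25.4 FPKM in KO (log2 difference -1.27 ± 0.44, adjusted p = 0.432). Scarb1 reached 1 FPKM in no WT library, so it had to separate to be tested. Fatty acid oxidation had 19 tested, 12 differences above 0 and 7 under it, median 0.42. Cpt1a, which passes fatty acids into the mitochondrion, overlapped at 6.54, 17.8 and 6.03 FPKM in WT and 20.1, 2.18 and 4.32 FPKM in KO (log2 difference -0.49 ± 0.85, adjusted p = 0.933), and Etfa, an electron carrier from fatty acid oxidation, was at 0.0669, 0.16 and 4.04 FPKM in WT and 9.54, 4.71 and 12.5 FPKM in KO (log2 difference 2.34 ± 0.85, adjusted p = 0.46). For PPAR receptors, partners and targets there were 15 tested, 6 differences above 0 and 9 under it, median -0.13, and no member separated the genotypes. The receptor genes did not reach the level for testing, with Ppara at 0, 0.126 and 0 FPKM in WT and 0.118, 0 and 0 FPKM in KO, Ppard at 0.0869, 0.0231 and 0 FPKM in WT and 0.0185, 0.39 and 1.68 FPKM in KO and Pparg at 0.744, 0 and 0 FPKM in WT and 0, 0 and 0 FPKM in KO.

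Lipid synthesis was described in the same way. Cholesterol synthesis had 19 tested, 16 differences above 0 and 3 under it, median 0.69, and 4 members were higher and 1 lower without overlap, beside 7.54% and 6.93% of all tested genes. Mvd, the mevalonate decarboxylase, was at 1.49, 4.15 and 0.0395 FPKM in WT and 8.28, 21.7 and 7.26 FPKM in KO (log2 difference 2.34 ± 0.84, adjusted p = 0.455). Insig2, which restrains the transcription factor SREBP, was at 1.23, 0.252 and 0 FPKM in WT and 3.71, 3.8 and 3.49 FPKM in KO (log2 difference 1.73 ± 0.63, adjusted p = 0.46). Fdft1, the squalene synthase, went the other way at 15.3, 17.4 and 19.1 FPKM in WT and 2, 4.82 and 11 FPKM in KO (log2 difference -1.62 ± 0.68, adjusted p = 0.554). Fatty acid synthesis and desaturation had 11 tested, 5 differences above 0 and 6 under it, median -0.37. Among 22 genes of lipid peroxide and oxidant defence (median 0.30), the ferritin light chain Ftl1 was at 141, 77.7 and 199 FPKM in WT and 267, 381 and 292 FPKM in KO (log2 difference 1.25 ± 0.36, adjusted p = 0.319). No gene of these lists passed the threshold.

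Mitochondrial energy genes encoded in the nucleus pointed to both sides, with none past the threshold. Complex I had 37 tested, 20 differences above 0 and 17 under it, median 0.13. Its small subunit gene Ndufa3 was lower in each KO library, at 659, 852 and 775 FPKM in WT and 372, 382 and 464 FPKM in KO (log2 difference -0.91 ± 0.19, adjusted p = 0.148), as was Ndufa2, at 1675, 1212 and 1571 FPKM in WT and 1043, 885 and 727 FPKM in KO (log2 difference -0.75 ± 0.19, adjusted p = 0.262). Complexes II and III had a median of 0.48 over 13 genes, and Sdha, the flavoprotein of succinate dehydrogenase, was higher in each KO library, at 16.4, 3.28 and 15.6 FPKM in WT and 32.2, 66.7 and 45.7 FPKM in KO (log2 difference 2.14 ± 0.66, adjusted p = 0.353). Complex IV had a median of 0.08 over 13 genes and differed within itself. Cox4i1 was at 1258, 857 and 983 FPKM in WT and 1907, 1660.5 and 1540.4 FPKM in KO (log2 difference 0.73 ± 0.18, adjusted p = 0.229) and Cox8a at 1059, 1214 and 1023 FPKM in WT and 562, 948 and 761 FPKM in KO (log2 difference -0.57 ± 0.21, adjusted p = 0.475). The ATP synthase had a median of 0.17 over 16 genes, none of which separated. Genes of mitochondrial biogenesis, fusion and fission had 25 tested, 8 differences above 0 and 17 under it, median -0.12. Of these, the fission factor Mff was at 106, 83.6 and 122 FPKM in WT and 29.3, 37 and 61.1 FPKM in KO (log2 difference -1.32 ± 0.40, adjusted p = 0.338), and the fusion GTPase Opa1 at 2.09, 1.84 and 1.02 FPKM in WT and 6.99, 9.27 and 6.43 FPKM in KO (log2 difference 1.70 ± 0.68, adjusted p = 0.528). Tfb2m, the mitochondrial transcription factor that opens the promoter, was at 0.19, 0 and 1.44 FPKM in WT and 3.75, 5.24 and 4.42 FPKM in KO (log2 difference 1.93 ± 0.66, adjusted p = 0.426).

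Central carbon metabolism had no gene past the threshold. Glycolysis had 21 tested, 16 differences above 0 and 5 under it, median 0.49, with 3 members higher without overlap and none lower. All tested genes gave 7.54% and 6.93%, with 53.7% of differences above 0. Pgk1, the phosphoglycerate kinase, was at 145, 132 and 99.1 FPKM in WT and 236, 253 and 238 FPKM in KO (log2 difference 0.96 ± 0.26, adjusted p = 0.293). Tpi1, triosephosphate isomerase, was at 313, 226 and 386 FPKM in WT and 682, 421 and 438 FPKM in KO (log2 difference 0.73 ± 0.28, adjusted p = 0.488). Both were higher in all tumor libraries than in spleen, where Pgk1 ranged from 14 to 63.7 FPKM. The TCA cycle had 21 tested, 15 differences above 0 and 6 under it, median 0.34. The hypoxia response had 20 tested, 8 differences above 0 and 12 under it, median -0.09, and Ankrd37, a target of the hypoxia-inducible factor, was at 0.201, 0.161 and 0 FPKM in WT and 9.38, 6.92 and 5.21 FPKM in KO (log2 difference 2.84 ± 0.64, adjusted p = 0.177). Genes of NAD synthesis and use had a median of 0.18 over 16 genes, and the nicotinamide riboside kinase Nmrk1 was at 1.09, 1.61 and 1.99 FPKM in WT and 0, 0.13 and 0.546 FPKM in KO (log2 difference -1.08 ± 0.52, adjusted p = 0.617). Ankrd37 reached 1 FPKM in no WT library and Nmrk1 in no KO library, so both had to separate to be tested.

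Treg identity lists had medians near 0. The Treg core list had 27 tested, 14 differences above 0 and 13 under it, median 0.02, and the effector and tumor Treg list 40 tested, 20 differences above 0 and 20 under it, median -0.01, with 4 members higher and 9 lower without overlap, beside 7.54% and 6.93% of all tested genes. Cd83, a surface glycoprotein of activated Tregs, was at 36.1, 17.9 and 38.2 FPKM in WT and 83.3, 122 and 128 FPKM in KO (log2 difference 1.87 ± 0.43, adjusted p = 0.194). Tnfrsf1b, the TNF receptor TNFR2 found on highly suppressive Tregs, was at 16, 4.21 and 12.9 FPKM in WT and 40.5, 36.1 and 30.7 FPKM in KO (log2 difference 1.77 ± 0.60, adjusted p = 0.415). Gata3, a transcription factor of tissue Tregs, was lower in each KO library, at 95.6, 127 and 139 FPKM in WT and 49.9, 68.5 and 53.4 FPKM in KO (log2 difference -1.06 ± 0.34, adjusted p = 0.369), as was S100a4, at 672, 1085 and 851 FPKM in WT and 602, 477 and 573 FPKM in KO (log2 difference -0.64 ± 0.22, adjusted p = 0.417). Resting and central T cell genes had 21 tested, 9 differences above 0 and 12 under it, median -0.11, with Klf2 the gene past the threshold. Without overlap 2 members were higher (Satb1 and Cd27) and 4 lower, beside 7.54% and 6.93% of all tested genes. Pik3ip1, an inhibitor of PI3 kinase, was at 37.5, 45.2 and 38.2 FPKM in WT and 16.2, 17 and 12.1 FPKM in KO (log2 difference -1.37 ± 0.46, adjusted p = 0.409), and Tcf7, the factor TCF1, at 71.9, 94.4 and 50.8 FPKM in WT and 35, 24.7 and 39.5 FPKM in KO (log2 difference -1.09 ± 0.42, adjusted p = 0.503). Both lay lower in each KO library.

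Cytokines and chemokines varied between members. Chemokines and their receptors had 19 tested, 12 differences above 0 and 7 under it, median 0.43. Ccl3, an inflammatory chemokine, was at 7.66, 99.4 and 31.8 FPKM in WT and 161, 151 and 224 FPKM in KO (log2 difference 2.53 ± 0.75, adjusted p = 0.333), while spleen and lymph node libraries did not exceed 6.94 FPKM. Cytokines and their receptors had 29 tested, 17 differences above 0 and 12 under it, median 0.14. The inflammatory cytokine Tnf was lower in each KO library, at 15.1, 37.6 and 29.9 FPKM in WT and 6.72, 6.3 and 6.43 FPKM in KO (log2 difference -1.84 ± 0.58, adjusted p = 0.366), and the suppressive cytokine Il10 higher in each, at 42.2, 12.8 and 23.4 FPKM in WT and 52.6, 50.2 and 59.3 FPKM in KO (log2 difference 1.17 ± 0.51, adjusted p = 0.568).

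Genes of T cell receptor and NF-kB response had 28 tested, 21 differences above 0 and 7 under it, median 0.46, and 9 of the 28 were higher without overlap against 1 lower. The background over all tested genes was 7.54% and 6.93%. Nr4a1, an early target of receptor signals, was at 5.23, 13.4 and 31 FPKM in WT and 39.8, 46 and 56.9 FPKM in KO (log2 difference 1.76 ± 0.64, adjusted p = 0.46), the NF-kB subunit Rel at 15.2, 19.9 and 10.7 FPKM in WT and 28.6, 35.8 and 42.6 FPKM in KO (log2 difference 1.20 ± 0.49, adjusted p = 0.552), and the adhesion ligand Icam1 at 3.9, 0.0587 and 8.98 FPKM in WT and 35.6, 12.7 and 19.2 FPKM in KO (log2 difference 2.54 ± 0.90, adjusted p = 0.44). The receptor complex and its proximal kinases had 32 tested, 11 differences above 0 and 21 under it, median -0.13. Immediate early and heat shock genes, which are known to respond to cell isolation, had 31 tested, 12 differences above 0 and 19 under it, median -0.15. Without overlap 2 members were higher (Nr4a1 and Zfp36l1) and 5 lower, beside 7.54% and 6.93% of all tested genes. There the chaperone Hsp90aa1 was at 1399, 1811 and 1196 FPKM in WT and 891, 827 and 723 FPKM in KO (log2 difference -0.84 ± 0.19, adjusted p = 0.176), its co-chaperone Dnajb1 at 238, 259.5 and 181 FPKM in WT and 118, 76 and 122 FPKM in KO (log2 difference -1.11 ± 0.31, adjusted p = 0.295), and the AP-1 member Jund at 482, 305 and 274 FPKM in WT and 188, 181 and 179 FPKM in KO (log2 difference -0.90 ± 0.27, adjusted p = 0.333), each lower in every KO library.

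Cell cycle and DNA replication genes had 34 tested, 28 differences above 0 and 6 under it, median 0.52, with 5 higher without overlap and none lower. All tested genes gave 7.54% and 6.93%, with 53.7% of differences above 0. Besides Stmn1, the mitotic kinase Plk1 was at 0, 0.0677 and 1.07 FPKM in WT and 15.5, 4.73 and 8.93 FPKM in KO (log2 difference 2.91 ± 0.75, adjusted p = 0.262). The replication clamp Pcna was at 30.1, 38.9 and 44.3 FPKM in WT and 109.6, 104 and 50.3 FPKM in KO (log2 difference 1.13 ± 0.43, adjusted p = 0.489). Apoptosis-promoting genes had 23 tested, 17 differences above 0 and 6 under it, median 0.62. The death receptor Fas was at 0.931, 2.31 and 3.2 FPKM in WT and 7.54, 10.6 and 20.3 FPKM in KO (log2 difference 2.1 ± 0.72, adjusted p = 0.425) and the TRAIL receptor Tnfrsf10b at 0.382, 0.0235 and 0 FPKM in WT and 3.98, 2.37 and 1.58 FPKM in KO (log2 difference 1.65 ± 0.56, adjusted p = 0.423), both higher in each KO library. Their counterpart Tnfsf10, the TRAIL ligand, was lower in each, at 10.2, 9.33 and 10.8 FPKM in WT and 3.13, 0.378 and 1.68 FPKM in KO (log2 difference -2.16 ± 0.72, adjusted p = 0.405). Tnfrsf10b reached 1 FPKM in no WT library, so its separation was fixed by the filter. Apoptosis-opposing genes had 17 tested, 10 differences above 0 and 7 under it, median 0.18, and the survivin gene Birc5, also a mitotic gene, was at 0.164, 0.984 and 1.57 FPKM in WT and 1.8, 5.83 and 22.5 FPKM in KO (log2 difference 2.08 ± 0.91, adjusted p = 0.568).

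Genes that respond to type I interferon had 45 tested, 12 differences above 0 and 33 under it, median -0.28, with 7 lower without overlap and none higher, beside 6.93% and 7.54% of all tested genes. Oasl1, a member of the oligoadenylate synthetase family, was at 11.6, 12.5 and 10.4 FPKM in WT and 0.675, 1.2 and 1.8 FPKM in KO (log2 difference -2.52 ± 0.67, adjusted p = 0.277). The antiviral gene Ifit3 was at 73.6, 179.6 and 77.6 FPKM in WT and 66.2, 26.4 and 30.5 FPKM in KO (log2 difference -1.40 ± 0.51, adjusted p = 0.46) and the dNTP hydrolase Samhd1 at 80.5, 87.5 and 90 FPKM in WT and 51.9, 30.5 and 46.2 FPKM in KO (log2 difference -1.02 ± 0.37, adjusted p = 0.463). All 3 were lower in each KO library, and Ifit3 was highest in WT 3. Genes of interferon gamma response and MHC class I had a median of 0.07 over 26 genes. There the cytokine signalling suppressor Socs3 was at 3.47, 16.1 and 1.6 FPKM in WT and 0.0467, 0.0289 and 0.502 FPKM in KO (log2 difference -2.31 ± 0.80, adjusted p = 0.43). Socs3 reached 1 FPKM in no KO library, so it had to separate to be tested. The list for unfolded proteins and integrated stress had a median of 0.13 over 29 genes, none without overlap.

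Cytoplasmic ribosomal proteins had 66 tested, 15 differences above 0 and 51 under it, median -0.21, and 24 of the 66 were lower without overlap against 2 higher, beside 6.93% and 7.54% over all tested genes. Rps21 was the member past the threshold. Rps14 was at 7431, 9751 and 7015 FPKM in WT and 5772, 5148 and 4469 FPKM in KO (log2 difference -0.65 ± 0.14, adjusted p = 0.173), and Rps24 at 2449, 2970.2 and 2908 FPKM in WT and 2012, 1764 and 1909 FPKM in KO (log2 difference -0.55 ± 0.13, adjusted p = 0.209), so the differences were small beside the level of these transcripts. The list median stayed under 0 in every alternative fit, from -0.26 to -0.05. The longest annotated transcript has 481 bases for Rps21, 987 for Rps14 and 4059 for Rps24. The longest annotated transcript need not be the form expressed in these cells. The part of transcript length was not tested here either. Translation factors had a median of 0.02 over 37 genes and cytoskeleton genes one of -0.07 over 33, where beta-actin, Actb, was at 12073, 11105 and 9446 FPKM in WT and 8764, 8206 and 7910.2 FPKM in KO (log2 difference -0.38 ± 0.10, adjusted p = 0.277).

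RefSeq promoters on GRCm38.p6, windows of 300 bases that reach from upstream to just past the start, were matched by symbol for 5938 of the tested genes. Searched on both strands, the core of the interferon-stimulated response element stood in 4.01% of them, the DR1 repeat bound by PPAR and RXR in 0.0505%, the AP-1 site TGANTCA in 5.94% and the cAMP-response site TGACGTCA in 4.06%. None of the 6 protein-coding genes past the threshold with a promoter entry held any of the 4 in this window, which says only that these letters are not there.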

How the data were processed

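RNA of Foxp3-YFP+ Tregs was sequenced in 14 libraries, 6 of them from tumors. The deposited values are FPKM, and the submitters' processing notes list Cufflinks 2.2.1 and Cuffdiff, TopHat2 2.1.1 with Bowtie2 2.2.9, DESeq2 and Trimmomatic, and the build GRCm38 (mm10), without saying which step each served. Whether counting used strand, and how FPKM was adjusted for very short genes, is not given in the sources used here. Gene classes, positions and sequences came from GENCODE M21, which matched 22201 of the 22255 identifiers.

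Reads per library were estimated from the steps between low FPKM values and the transcript length, where 93.4 to 96.0% of 288 to 348 low values in the tumor libraries were whole within 0.1. Since the scale of FPKM is a share of the library, a gain in some genes lowers others. The 3-read limits cover counting error only.

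KO and WT tumor libraries were compared by robust limma-trend (limma 3.58.1, R 4.3.3) on log2(FPKM + 1), a scale that understates the difference of low genes, with group as the only term. A gene was tested at 1 FPKM in 3 or more of the 6 libraries, with Benjamini-Hochberg adjustment over all 8210 and a threshold of 0.05. Differences are KO minus WT with standard errors. Shares and marker lists were compared by exact two-sided permutation tests. The fit was also run on simulated data, only to see that larger changes were recovered more often than smaller ones. That run sets no error rate for these libraries.

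The members, lists and tests were chosen with earlier results of these data known. Genes past the threshold with at least 10 FPKM in the higher group and no overlap were named, filled up to 15 per direction by smallest p. From each pathway list the 3 members with the smallest p could be named. The remaining genes past the threshold, Igkc, Mzb1, the host genes, the PPAR receptors, Cpt1a, S1pr1 and further markers and mitochondrial genes were chosen after their values were seen.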

Additional observations from a re-analysis of the deposited data

How the results depend on the processing

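The count of 23 genes past the threshold was repeated under other choices, where the genes counted need not be those 23. A pseudocount of 0.1 gave 18 genes (5 higher, 13 lower), one of 5 gave 21 (6 and 15), scaling to the protein-coding total 24 (10 and 14), quantile normalization 20 (8 and 12), and a mean of at least 5 FPKM 25 (9 and 16). Of these 18, 21, 22, 19 and 23 were among the 23. Protein-coding scaling moved the median of all genes from 0.07 to 0.16 and quantile normalization to -0.03. Testing 15208 genes with no filter on low values left 0 genes past the threshold by limma, 0 higher and 0 lower, with 769 at an unadjusted p under 0.05. All 14 libraries in a single fit gave 73 (33 higher, 40 lower), which held all 23. With the replicate number as a block 6 remained, 0 higher and 6 lower. Only numbers 2 and 3 occur in both groups, and same-numbered libraries did not deviate together (correlations -0.000542 and -0.0139). These few pairs cannot settle whether same-numbered libraries share a mouse or a preparation. Leaving out 1 library gave 9 to 15 genes (1 to 7 higher, 7 to 14 lower). Without genes under 300 bases and receptor segments the count was 8 (5 and 3). The cause of these shifts was not tested.

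Marker scores that turned sign were all small and had exact p of 0.4 or more. The neutrophil difference went from -0.09 to 0.03 without WT 4 (range -0.18 to 0.03 over the libraries left out), the B cell difference from 0.09 to -0.04 with a pseudocount of 5 and to -0.14 without WT 2 and -0.16 without KO 3 (range -0.16 to 0.29), the CD8 T or NK cell difference from -0.05 to 0.01 with a pseudocount of 0.1, and the helper T cell difference from 0.07 to -0.01 with a pseudocount of 5 and -0.07 without KO 3 (range -0.07 to 0.17). The erythroid difference of -0.09 went to 0.47 without WT 3, 0.42 without WT 4 and 1.18 without KO 3 (range -1.15 to 1.18). Among named genes with small differences, Ctsb turned to -0.07 with the replicate block, -0.12 without WT 4 and -0.04 without KO 2, mt-Tn to -0.21 without WT 2 and -0.04 without KO 3 (range -0.21 to 0.65), Il2ra to -0.03 without KO 1 (range -0.03 to 0.26), and Cpt1a to 0.09 without KO 2 (range -1.28 to 0.09). The macrophage difference of 1.83 kept its sign in every alternative run. It was 2.82 at a pseudocount of 0.1, 1.09 at a pseudocount of 5 and 1.59 to 2.11 over the libraries left out. Little can be said of genes such as Cd36 and the PPAR receptors, which lay under 1 FPKM or were listed at 0 in most libraries. Whether depth or a failed estimate gave those zeros was not tested.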
